A study of Mus musculus with 18 samples.

Results

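Complement components and complement receptors were followed in bone marrow-derived macrophages (BMDMs) kept above renal tubular epithelial cells (TECs). The group held 9 genes, chosen by gene symbol: the C1q subunit genes C1qa, C1qb and C1qc, the components C3, C4b and Cfb, the inhibitor Serping1, and the receptors C3ar1 and C5ar1. All 9 were found among the 25926 genes of the expression table. The rule is the list of symbols and uses no measured value, although the list was drawn up with earlier results of these data known.

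BMDMs of C57BL/6J mice (C57BL/6 in the strain label) were grown for 7 days in M-CSF (50 ng/mL), the growth factor that drives marrow cells to become macrophages. They were then placed in the upper chamber of a Transwell, an insert whose pores of 0.4 μm pass soluble factors, with wild-type TECs below. RNA-seq covered 18 samples in 3 groups of 6. In NC the BMDMs received PBS above TECs without crystals. In COM they received PBS above TECs that had calcium oxalate monohydrate (COM) crystals added at 100 μg/mL for 24 h. In COM+Met the BMDMs received 5 mM Met for 24 h above TECs exposed to crystals in the same way, and the sample labels do not spell out Met. No group received Met without crystals. Neither the labels nor the study's methods say if the 6 samples of a group are from separate cultures or animals. The p-values therefore cover only how far these samples spread, and that spread may be technical.

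Complement is a cascade of plasma and tissue proteins that marks microbes, debris and dying cells for removal. C1q recognises the target in the classical pathway, C3 is the component on which the pathways converge, and factor B (Cfb) joins C3b to form the convertase of the alternative pathway, which amplifies the cascade. The split products C3a and C5a act on myeloid cells through C3ar1 and C5ar1. Macrophages are a known source of C1q in tissues and also make C3 and factor B. In the kidney, complement proteins come from the circulation and from resident and infiltrating cells.

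Levels are given as FPKM, which is scaled to gene length and to sample total, so that genes can be compared with each other. The read depth behind the values is unknown. Differences were tested with limma on log2(FPKM + 1), a scale that understates the changes of low genes. A gene passed at an adjusted p below 0.05 over all genes tested, and was called when it also differed by at least 2-fold. Of the 10 macrophage markers listed, 9 averaged at least 1 FPKM in every group, the exception being Cd163, and Lyz2 was the most abundant. Of other cell types, the 13 tubular epithelial markers summed to 10.9 to 18.2 FPKM in NC, most of it Cdh1, and to at most 1.37 FPKM in COM and 0.332 FPKM in COM+Met. In NC, 11 of these 13 markers were below 1 FPKM in all samples, and 3 were at 0. The 6 lymphocyte markers summed to at most 1.295 FPKM, and the 7 dendritic cell markers to 47.7 to 184 FPKM in NC, 112 to 388 FPKM in COM and 111 to 146 FPKM in COM+Met. Itgax led the dendritic cell list in NC (up to 158 FPKM), while in COM Ccr7 reached 214 FPKM and Itgax 163 FPKM. Over 10751 genes, correlations between samples reached down to 0.938 within NC, 0.888 within COM and 0.989 within COM+Met, and several members split along the same libraries (NC-5 and NC-6 from the other NC samples, and COM-1 to COM-3 from COM-4 to COM-6). Over all genes tested, the median log2 fold change was -0.27 for COM against NC and -0.26 for COM+Met against NC, and near 0 (0.0033) for COM+Met against COM. With size factors these medians were -0.0045, -0.0049 and 0.0063.

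The members spanned a wide range of levels. In NC, C3 was the highest with 179 ± 51.96 FPKM (SD, n = 6), followed by Cfb with 108 ± 66.8 FPKM, and their ranges overlapped. C5ar1 stood next with 21.4 ± 3.64 FPKM. C1qb (12.1 ± 8.32 FPKM) and C3ar1 (11.3 ± 2.21 FPKM) could not be ordered within their spread, nor could C1qc (5.28 ± 3.51 FPKM) and C1qa (4.45 ± 3.25 FPKM). Serping1 averaged 1.32 ± 0.962 FPKM and C4b 0.0335 ± 0.0236 FPKM. In COM the order of Cfb and C3 was turned: Cfb had 1428 ± 326 FPKM (SD, n = 6) and C3 309 ± 90.3 FPKM, without overlap. By mean FPKM, Cfb ranked 544 of 10923 genes that averaged 1 FPKM or more in NC, 24 of 10447 in COM and 43 of 10182 in COM+Met. C3 ranked 334, 165 and 178 in the same groups.

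**Figure D1:**
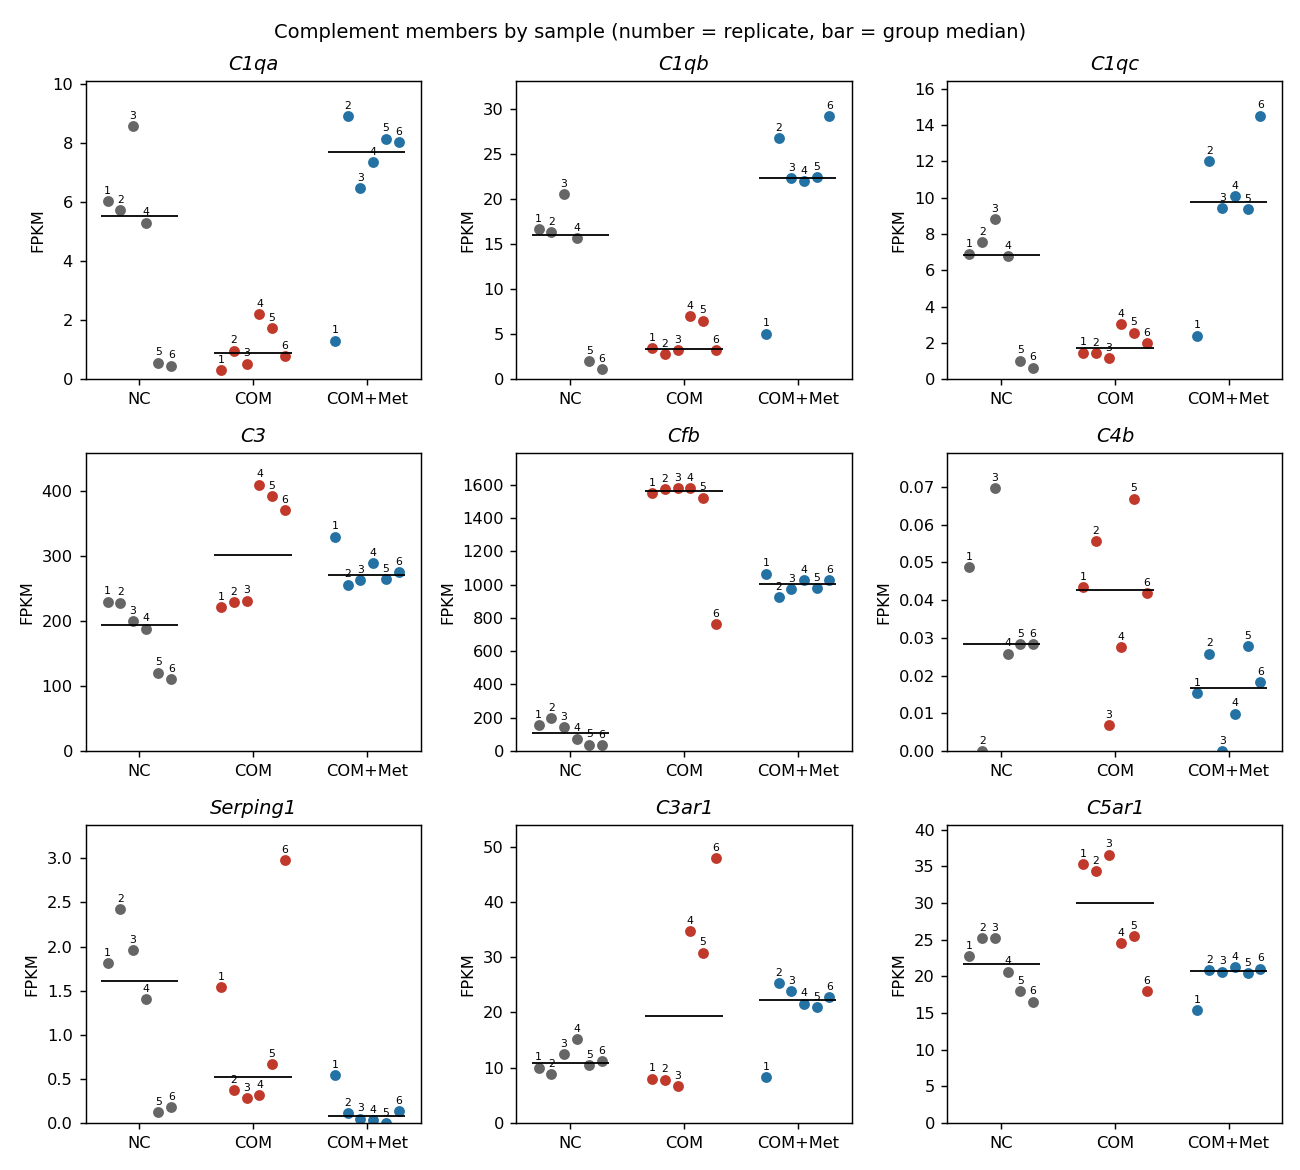
FPKM of each of the 9 members (vertical axes, linear, a separate scale for each gene) in the 6 samples of NC, COM and COM+Met, each point being a sample with its replicate number and each bar the group median. Cfb in the 6 NC samples (36.3 to 196 FPKM) lies below all COM (765 to 1580.5 FPKM) and COM+Met (925 to 1065 FPKM) samples, while the C1q genes, C3ar1 and C5ar1 split within groups.

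C1qa, C1qb and C1qc encode the A, B and C chains that assemble into C1q, the recognition protein of the classical pathway. All 3 genes were higher in COM+Met than in COM, by 1.75 to 1.96 on the log2 scale. They lie side by side on the minus strand of chromosome 4 in GENCODE M21 on GRCm38: C1qb (ENSMUSG00000036905) from 136880129 to 136886187, C1qc (ENSMUSG00000036896) from 136889804 to 136893065 and C1qa (ENSMUSG00000036887) from 136895917 to 136898803. The submitters' processing notes name other builds, mm8 and mm9. All 9 members are annotated as protein-coding.

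Promoter windows, the 250 bases before the start site in RefSeq on GRCm38.p6, were matched for 5 of the 9 members: C1qb, C1qc, C3, C3ar1 and C5ar1. C1qa, C4b, Cfb and Serping1 had no entry. The windows of C1qb and C1qc are shown because these genes moved together, and bases that GENCODE places inside the gene are left out. Each holds, in capitals, the letters GAGGAA or their reverse complement TTCCTC, a core sequence bound by PU.1, a transcription factor of macrophages. The match lies on the coding strand from -30 to -25 relative to the start site in C1qb and on the other strand from -193 to -188 in C1qc. The printed stretches are chr4:136886201-136886450 and chr4:136893066-136893164, both 5′ to 3′ on the minus strand. These 6 letters occur on either strand in 23.3% of 32851 promoter windows of the same length, so a match is common.
C1qb: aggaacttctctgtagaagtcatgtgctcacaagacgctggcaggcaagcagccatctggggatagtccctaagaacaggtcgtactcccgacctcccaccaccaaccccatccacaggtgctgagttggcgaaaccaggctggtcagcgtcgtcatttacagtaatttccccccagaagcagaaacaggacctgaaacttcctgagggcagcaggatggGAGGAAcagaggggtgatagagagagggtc
C1qc: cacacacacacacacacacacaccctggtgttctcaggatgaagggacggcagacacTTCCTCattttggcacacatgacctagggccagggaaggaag

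C1qb was the most abundant subunit gene. It ran from 1.11 to 20.6 FPKM in NC (median 16.0), from 2.77 to 6.98 FPKM in COM (median 3.37) and from 5.08 to 29.2 FPKM in COM+Met (median 22.4). NC did not form a single cluster: NC-1 to NC-4 measured 16.7, 16.3, 20.6 and 15.7 FPKM, but NC-5 and NC-6 only 2.001 and 1.11 FPKM. In COM+Met the low sample was COM+Met-1, with 5.08 FPKM against 22.0 FPKM or more in the other 5. C1qa ran from 0.467 to 8.58 FPKM in NC (median 5.52), from 0.306 to 2.21 FPKM in COM (median 0.884) and from 1.31 to 8.93 FPKM in COM+Met (median 7.69). C1qc ran from 0.648 to 8.80 FPKM in NC (median 6.82), from 1.15 to 3.05 FPKM in COM (median 1.72) and from 2.40 to 14.5 FPKM in COM+Met (median 9.75). In NC and COM+Met the same libraries were low for all 3 genes. The lowest COM sample was COM-1 for C1qa, COM-2 for C1qb and COM-3 for C1qc.

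Against COM, the 3 genes rose in COM+Met. C1qa had a log2 fold change of 1.82 with a standard error of 0.34 (limma, adjusted p = 0.00465). C1qb had 1.96 with a standard error of 0.36 (limma, adjusted p = 0.00384), and C1qc had 1.75 with a standard error of 0.31 (limma, adjusted p = 0.00336). For each gene, 5 of 6 COM+Met samples lay above all 6 COM samples, and COM+Met-1 lay within the COM range (two-sided exact permutation test, p = 0.00649 for each gene, unadjusted). The group means were 6.71 against 1.09 FPKM for C1qa, 21.3 against 4.37 FPKM for C1qb and 9.63 against 1.95 FPKM for C1qc. Among all 10364 genes tested in this comparison, 63 were called higher (0.608%), and these 3 were the members among them. Under the other settings tried their highest adjusted p from limma was 0.0351, 0.0319 and 0.0291.

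Between COM and NC the C1q genes did not pass. C1qa, C1qb and C1qc had log2 fold changes of -1.12, -0.88 and -0.82, with adjusted p of 0.0594, 0.206 and 0.13 from limma, and the 95% interval for C1qb reached from -2.10 to 0.35. NC-5 and NC-6 held the lowest NC values of all 3 genes, so leaving them out raises the NC mean. Fits without them are a description and no separate evidence of a fall. Without NC-5 and NC-6, the log2 fold changes were -1.88, -1.83 and -1.56 and all 3 genes passed as lower in COM (adjusted p = 0.000161, 0.000104 and 6.34e-05 from limma). Without NC-6 alone the 3 genes also passed, with -1.43, -1.31 and -1.15, and without NC-5 alone C1qa and C1qc passed, with -1.41 and -1.09. With both kept, the 3 genes passed with sample weights (-2.07, -1.96 and -1.71), and C1qa passed with a pseudocount of 5 (-0.56, adjusted p = 0.0381 from limma) and with all 18 samples in the same fit (adjusted p = 0.0439). COM+Met and NC did not differ by the test either, with log2 fold changes of 0.70, 1.09 and 0.93 for C1qa, C1qb and C1qc and adjusted p of 0.241, 0.132 and 0.112 from limma. Without NC-5 and NC-6 these values were -0.061, 0.13 and 0.19. Without COM+Met-1, which had the least C1q in COM+Met, C1qb and C1qc passed with 1.43 and 1.23. C1qc also passed with quantile normalisation (1.19).

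The proportions of the subunits varied far less than their levels. The summed FPKM of the 3 genes ran from 2.22 to 51.8 over the 18 samples, while C1qb made up 49.8% to 66.1% of the sum and C1qc 23.2% to 33.0%. C1qa made up 15.7% to 22.6% in NC and 14.9% to 20.4% in COM+Met, and 5.82% to 18.7% in COM, where its level was below 1 FPKM in 4 of 6 samples. Within groups the genes followed each other across the 6 samples, with Pearson's r on the log2 scale of 0.993 to 0.999 in NC, 0.829 to 0.885 in COM and 0.968 to 0.993 in COM+Met. These points share libraries, and the values are a description.

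**Figure D2:**
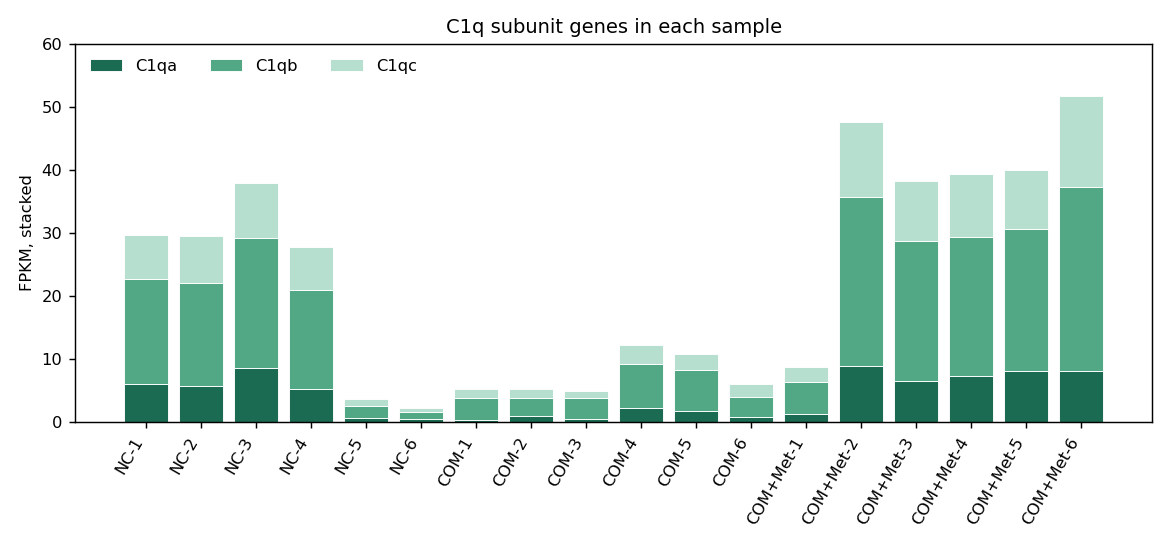
FPKM of C1qa, C1qb and C1qc (vertical axis, stacked bars from 0) in each of the 18 samples. The sum is 2.22 FPKM in the lowest NC sample and 51.8 FPKM in the highest COM+Met sample, and C1qb is the largest segment in each bar.

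The macrophage marker sum was also low in the libraries of NC and COM+Met with little C1q. The 10 markers summed to 11700 and 12019 FPKM in NC-5 and NC-6 and to 13751 FPKM or more in NC-1 to NC-4, to 13413 FPKM in COM+Met-1 and to 16035 FPKM or more in the other COM+Met samples, and to 14062 and 15615 FPKM in COM-5 and COM-4, the COM samples with the most C1q. COM-6, with 5.99 FPKM of C1q, had the lowest sum in COM, 11840 FPKM. Lyz2 made up most of these sums and was also the gene most like C1q over the samples. Itgam, another marker, was low in NC-5 and NC-6 (160 and 156 FPKM). It was not low in COM+Met-1 (158 FPKM, group range 141 to 159). In COM it was higher in COM-1 to COM-3 (354 to 360 FPKM) than in COM-4 and COM-5 (232 and 209.5 FPKM). Other lists shifted along the same NC libraries: dendritic cell markers summed to 55.0 and 47.7 FPKM in NC-5 and NC-6 and to 159.8 to 184 FPKM in NC-1 to NC-4, and neutrophil markers to 539 and 560.5 FPKM and to 891 to 1027 FPKM. Tubular epithelial markers went the other way, with 16.0 and 18.2 FPKM in NC-5 and NC-6 and 10.9 to 15.3 FPKM in NC-1 to NC-4. In COM+Met-1 the neutrophil, dendritic cell and stromal cell sums were the highest of its group (145, 146 and 8.72 FPKM). The part of these cells in the C1q values was not tested. In bulk RNA, fewer cells of a type and less RNA per cell cannot be told apart.

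C3 and Cfb encode the central component and factor B, the pair that forms the alternative pathway convertase. Both rose in COM and in COM+Met against NC. C3 (ENSMUSG00000024164) lies on chromosome 17 from 57203970 to 57228136 and Cfb (ENSMUSG00000090231) on chromosome 17 from 34856374 to 34862518, both on the minus strand. A readthrough gene model that overlaps Cfb, Gm20547, had a mean of 0.0538 FPKM in NC and less in the other groups. The promoter window of C3 is shown because C3 was higher in both crystal groups. In capitals it holds TTGCGAAA from -45 to -38, a match to TTGCNNAA, letters found in sites of C/EBP factors, which is present in 9.56% of all windows. The stretch is chr17:57228137-57228386 on the minus strand.
C3: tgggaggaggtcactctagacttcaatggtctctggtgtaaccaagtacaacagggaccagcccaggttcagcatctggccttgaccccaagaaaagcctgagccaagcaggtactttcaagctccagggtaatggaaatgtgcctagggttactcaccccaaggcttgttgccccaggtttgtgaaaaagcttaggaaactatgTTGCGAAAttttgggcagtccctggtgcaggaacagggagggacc

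Cfb separated NC from both crystal groups. From NC-1 to NC-6 the values were 158, 196, 142, 75.0, 39.6 and 36.3 FPKM, and from COM-1 to COM-6 they were 1549.8, 1573, 1578, 1580.5, 1522 and 765 FPKM. In COM+Met it ran from 925 to 1065 FPKM with a median of 1001. The 6 samples of NC lay below all samples of the other groups, and COM-6 was the 1 COM sample below COM+Met. Its log2 fold change for COM against NC was 3.95 with a standard error of 0.41 (limma, adjusted p = 7.85e-06), which is 4.22 above the median of all genes. The value for COM+Met against NC was 3.48 with a standard error of 0.38 (limma, adjusted p = 2.68e-06), 3.74 above the median. In both comparisons the exact permutation test gave p = 0.00216, the smallest that 6 samples against 6 allow.

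Whether Cfb passed between COM+Met and COM depended on COM-6 and on the scaling. With all samples its log2 fold change was -0.47 (limma, standard error 0.17, adjusted p = 0.0866) and the gene did not pass. The exact permutation test gave p = 0.0152, unadjusted. Without COM-6 the log2 fold change was -0.65 (adjusted p = 3.66e-05 from limma), and the 6 COM+Met samples lay below the remaining 5 COM samples. With COM-6 kept it passed with TPM (-0.52, adjusted p = 0.0334 from limma), size factors (-0.47, adjusted p = 0.0307) and sample weights (-0.66, adjusted p = 7.97e-08).

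C3 changed less than Cfb. It ran from 111 to 229.5 FPKM in NC (median 194), from 222 to 409 FPKM in COM (median 301) and from 256 to 329 FPKM in COM+Met (median 270). COM held separate levels, with 222, 229 and 231 FPKM in COM-1 to COM-3 and 409, 391 and 370.3 FPKM in COM-4 to COM-6, and COM-1 and COM-2 lay within the range of NC. Against NC, C3 was higher in COM by 0.78 on the log2 scale (standard error 0.24; limma, adjusted p = 0.0147), and by 1.05 beyond the median of all genes. Without NC-5 and NC-6 this fell short of the threshold, with 0.50 (adjusted p = 0.0824 from limma), and without COM-4 to COM-6 likewise, with 0.39 (adjusted p = 0.193). COM+Met did not overlap with NC, and its log2 difference of 0.69 (standard error 0.18; limma, adjusted p = 0.00332) passed without NC-5 and NC-6 as well, with 0.40.

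Between COM+Met and COM no difference in C3 was found with all samples (log2 fold change -0.10, 95% interval -0.48 to 0.28, adjusted p = 0.759 from limma). The sign followed the COM samples used. Against COM-1 to COM-3 alone, C3 was higher in COM+Met by 0.29 (adjusted p = 0.00411 from limma), and against COM-4 to COM-6 alone it was lower, with -0.49 (adjusted p = 0.00778). These parts of COM were chosen after its levels were seen, so the fits to them are a description.

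The ratio of Cfb to C3 within each sample separated NC from both crystal groups. It was 0.327 to 0.860 in NC, 2.06 to 6.99 in COM and 3.23 to 3.73 in COM+Met. C3 therefore exceeded Cfb in FPKM in all 6 NC samples, and Cfb exceeded C3 in all 12 others.

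C4b and Serping1 were the low members. C4b, a component of the classical and lectin pathways, lies on chromosome 17 from 34728380 to 34743882 (ENSMUSG00000073418). It was at or below 0.0697 FPKM in all 18 samples and under the filter in all 3 comparisons, with means of 0.0335, 0.0405 and 0.0162 FPKM in NC, COM and COM+Met. At these levels COM+Met was lower than COM in the exact permutation test (p = 0.0346, unadjusted), with overlapping samples. Its near-identical copy C4a was not among the genes of the table, so that even these values are uncertain.

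Serping1 (ENSMUSG00000023224, chromosome 2 from 84765387 to 84775444) encodes the C1 inhibitor, which blocks C1r and C1s. From NC-1 to NC-6 its values were 1.81, 2.43, 1.96, 1.40, 0.121 and 0.177 FPKM, and from COM-1 to COM-6 they were 1.54, 0.376, 0.278, 0.317, 0.668 and 2.98 FPKM. In COM+Met it was highest in COM+Met-1 with 0.542 FPKM, and the other 5 samples had 0.136 FPKM or less. COM and NC overlapped (log2 fold change -0.20, adjusted p = 0.643 from limma). Serping1 lay below the filter in both comparisons with COM+Met. In exact permutation tests its mean log2 value was lower in COM+Met than in COM (p = 0.013, 5 of 6 samples below all COM samples) and than in NC (p = 0.0195, 4 of 6 samples below all NC samples), both unadjusted.

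By highest value in each group, most markers of stromal cells were lowest in COM+Met, as Serping1 was. Among genes that averaged 1 FPKM or more, the pattern most like that of Serping1 was that of Dcn, the gene of the matrix proteoglycan decorin (Pearson's r 0.949 over 18 samples that share libraries). Dcn averaged 5.80 FPKM in NC, 2.32 in COM and 0.136 in COM+Met. The 8 stromal markers, Dcn among them, summed to 21.4 to 76.5 FPKM in NC, 6.06 to 42.4 FPKM in COM and 3.25 to 8.72 FPKM in COM+Met, and none was at 0 in all samples of a group. Pdgfrb went the other way, with highest values of 1.498 FPKM in NC, 7.04 FPKM in COM and 4.11 FPKM in COM+Met. NC-5 had a stromal sum of 46.7 FPKM, close to the 58.9 FPKM of NC-4, with far less Serping1. COM-6 had the most Serping1 of the 18 samples (2.98 FPKM), with a stromal sum of 19.9 FPKM, below all NC samples. The part of stromal cells in the Serping1 values was not tested.

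The receptors C3ar1 and C5ar1, which bind C3a and C5a, divided the COM samples in opposite directions. C3ar1 (ENSMUSG00000040552) lies on chromosome 6 from 122847138 to 122856161 and C5ar1 (ENSMUSG00000049130) on chromosome 7 from 16246743 to 16259540. The promoter window of C3ar1 is shown because C3ar1 was higher in COM+Met than in NC. Its capitals, from -14 to -5, are GGAAAGGCCC, the reverse complement of a match to the kappa B sequence searched (GGG and TTTCC with any 2 bases between), which occurs in 1.41% of all windows. None of the 5 motifs was found in the 250 bases of the C5ar1 window, 202 of which GENCODE places inside the gene. The stretch is chr6:122856162-122856407 on the minus strand.
C3ar1: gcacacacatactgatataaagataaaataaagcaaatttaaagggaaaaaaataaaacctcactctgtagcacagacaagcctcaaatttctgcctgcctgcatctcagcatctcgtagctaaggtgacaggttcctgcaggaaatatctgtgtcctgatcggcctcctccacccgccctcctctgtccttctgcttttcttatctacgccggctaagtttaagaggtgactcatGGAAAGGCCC

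In COM-1 to COM-3, C3ar1 measured 7.99, 7.84 and 6.69 FPKM, and it reached 34.7, 30.8 and 47.9 FPKM in COM-4 to COM-6. The first 3 were below all NC samples, which ran from 8.77 to 15.1 FPKM (median 10.8), and the last 3 were above them. In COM+Met it was 8.22 FPKM in COM+Met-1 and 21.0 to 25.2 FPKM in the other 5. C5ar1 showed the reverse in COM, with 35.3, 34.4 and 36.6 FPKM in COM-1 to COM-3 and 24.5, 25.5 and 18.01 FPKM in COM-4 to COM-6. It ran from 16.5 to 25.2 FPKM in NC (median 21.7) and from 15.3 to 21.3 FPKM in COM+Met (median 20.8). The ratio of C3ar1 to C5ar1 was 0.348 to 0.732 in NC, 0.183 to 2.66 in COM and 0.536 to 1.21 in COM+Met, so that COM enclosed both other groups.

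**Figure D3:**
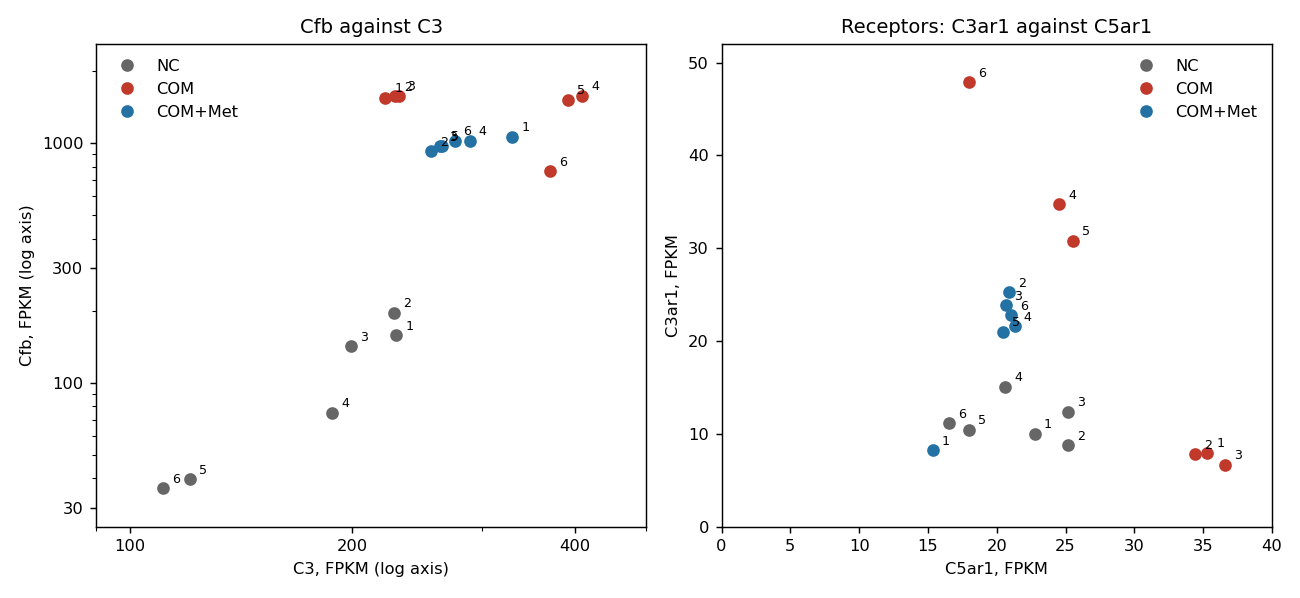
Left, Cfb against C3 in FPKM on log axes, and right, C3ar1 against C5ar1 in FPKM on linear axes from 0, with a point for each of the 18 samples marked by its replicate number. On the left the 6 NC samples lie at or below 196 FPKM of Cfb and all others at or above 765 FPKM. On the right COM-1 to COM-3 hold the highest C5ar1 and the lowest C3ar1, while COM-4 to COM-6 hold the highest C3ar1.

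With such a spread the mean changes of the receptors in COM were not past the threshold. For COM against NC, C3ar1 had a log2 fold change of 0.57 (95% interval -0.40 to 1.54, adjusted p = 0.299 from limma). It was -0.52 with COM-1 to COM-3 alone (adjusted p = 0.0128 from limma) and 1.65 with COM-4 to COM-6 alone (adjusted p = 4.55e-05). COM was divided after its split was seen in these data, so fits to its parts are a description and not independent tests. C5ar1 had 0.40 with a standard error of 0.18 (limma, adjusted p = 0.0715), which is 0.67 above the median of all genes. It was 0.72 with COM-1 to COM-3 alone (adjusted p = 0.00157 from limma) and 0.083 with COM-4 to COM-6 alone (adjusted p = 0.683). With all COM samples it passed with size factors (0.70), quantile normalisation (0.58), sample weights (0.56) and all 18 samples in the same fit (0.40), and it also passed without COM-6 (0.53).

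Against COM, C3ar1 in COM+Met did not differ by the test (log2 fold change 0.18, 95% interval -0.87 to 1.23, adjusted p = 0.84 from limma), and its sign again followed the COM samples used (1.26 against COM-1 to COM-3 and -0.91 against COM-4 to COM-6). C5ar1 had -0.49 (limma, standard error 0.16, adjusted p = 0.066) with all samples, and p = 0.0173 in the exact permutation test, unadjusted. Its log2 fold change was -0.81 against COM-1 to COM-3 (limma, adjusted p = 1.47e-05) and -0.17 against COM-4 to COM-6 (adjusted p = 0.356), again as a description. C5ar1 passed without COM-6 (-0.61), with TPM (-0.53), size factors (-0.48), quantile normalisation (-0.47), sample weights (-0.74) and all 18 samples in the same fit (-0.49). Against NC, C3ar1 was higher in COM+Met by 0.74 (standard error 0.23; limma, adjusted p = 0.00966), 1.01 above the median, with 5 of 6 samples above all NC samples and COM+Met-1 below them. This did not pass when all 18 samples shared a fit (adjusted p = 0.127 from limma). C5ar1 had -0.09 (95% interval -0.33 to 0.16, adjusted p = 0.492 from limma), a sign that turned to 0.20 with size factors. Under the other settings tried it went down to -0.23. Its lowest adjusted p from limma there was 0.0285, reached with a negative value.

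Neutrophil and dendritic cell markers moved with the split of C5ar1 in COM. The 12 neutrophil markers summed to 561, 528 and 543 FPKM in COM-1 to COM-3 and to 187, 188 and 245 FPKM in COM-4 to COM-6, although NC, with less C5ar1, had 539 to 1027 FPKM. Mmp8 (up to 229 FPKM) and S100a8 (up to 301 FPKM) led this sum in COM, 6 of the 12 markers averaged 1 FPKM or more there, and Elane, Ly6g, Mpo and Retnlg were at 0 in all COM samples. The 7 dendritic cell markers summed to 358, 388 and 369 FPKM in COM-1 to COM-3 and to 119.96, 123 and 112 FPKM in COM-4 to COM-6. Ccr7 (up to 214 FPKM) and Itgax (up to 163 FPKM) led that sum in COM. Flt3, Zbtb46, Xcr1 and Clec9a reached at most 4.72 FPKM there, and Cd209a was at 0. Mmp9, the gene of a matrix metalloproteinase, was among the 3 genes most like C5ar1, with means of 5.14, 32.6 and 4.05 FPKM in NC, COM and COM+Met (Pearson's r 0.917 over 18 samples). The part of such cells in the receptor values was not tested.

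Of the 9 members, 8 were tested for COM against NC, and 2 passed as higher (C3 and Cfb) and 0 as lower, where 12.7% of all 10900 genes passed as higher and 40.6% as lower. Cfb alone was called, in a comparison where 5.99% of genes were called higher, and it alone had groups that did not overlap, as 8.6% of genes did in that direction. Between COM+Met and COM, 7 were tested, 3 passed as higher and 0 as lower, against 5.77% and 7.58% of all genes. Between COM+Met and NC, 7 were tested, 3 passed as higher (C3, Cfb and C3ar1) and 0 as lower, against 19.3% and 55.9% of 10786 genes, and Cfb was called (5.66% of genes called higher). C3 and Cfb did not overlap there, as in 14.1% of genes. The members' median log2 fold change was 0.10, 0.18 and 0.74 in the 3 comparisons, beside -0.27, 0.0033 and -0.26 for all genes tested. The comparisons share samples and are not independent of each other.

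**Figure D4:**
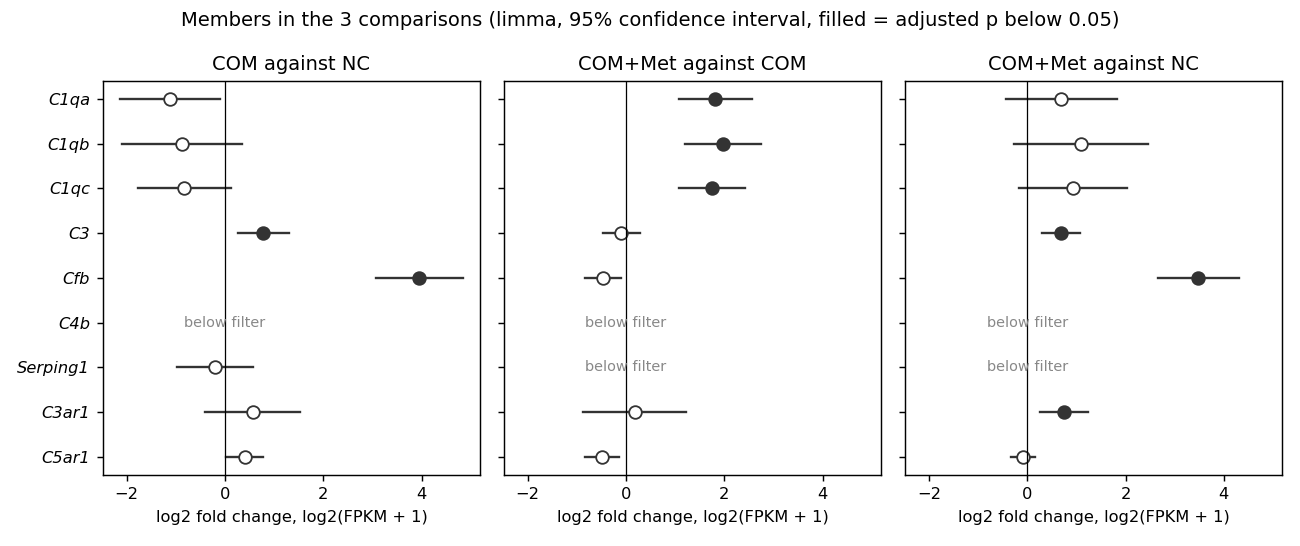
Log2 fold change of each member on the log2(FPKM + 1) scale (horizontal axes) for COM against NC, COM+Met against COM and COM+Met against NC, with 95% confidence intervals from limma, and filled points for an adjusted p below 0.05. Cfb stands at 3.95 and 3.48 in the comparisons with NC, and the C1q genes stand between 1.75 and 1.96 for COM+Met against COM.

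A list of 48 other complement genes was followed for context, of which 47 were in the table. For COM against NC 18 were tested, with a median log2 fold change of -0.24. Of these, 6 passed as higher and 9 as lower, where 12.7% and 40.6% of all genes did. Of them 3 were called higher and 5 lower, where 5.99% and 11.7% of all genes were. Clusterin (Clu), a soluble regulator of the terminal complex, averaged 0.297 ± 0.218 FPKM in NC and rose to 8.96 ± 2.65 FPKM in COM (SD, n = 6), by 2.91 on the log2 scale (limma, adjusted p = 2.16e-07). The C1 proteases C1ra and C1s1, which Serping1 inhibits, were called higher with 1.43 and 1.17, but each has a near-identical copy (C1rb and C1s2) with which reads could be shared, and C1s1 passed narrowly (adjusted p = 0.0498 from limma). Levels of C1s1 split within COM: 10.1, 9.29 and 8.65 FPKM for COM-1 to COM-3 and 2.44, 2.60 and 1.76 FPKM in COM-4 to COM-6, within the NC range of 0.248 to 3.77 FPKM. Properdin (Cfp), which stabilises the convertase that contains factor B, averaged 171 ± 65.6 FPKM in NC and 64.0 ± 29.6 FPKM in COM (SD, n = 6) and was called lower, with -1.49 on the log2 scale (limma, adjusted p = 0.00973). Cd93, a lectin-like receptor of myeloid cells, was called lower with -2.84, the collectin Colec12 with -1.78, the ficolin Fcna with -1.27 and the second C5a receptor C5ar2 with -1.09. With size factors C5ar2 stood at -0.95, below 2-fold, and the other 7 stayed beyond it in the same direction. With quantile normalisation C5ar2 (-0.69) and Fcna (-0.96) lay below 2-fold.

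In the comparison of COM+Met with COM, 15 of the list were tested. In limma 0 passed as higher and 4 as lower, where 5.77% and 7.58% of all genes did. Clu had a log2 fold change of -1.41 (adjusted p = 0.00632 from limma) and C1s1, which split within COM, -1.43 (adjusted p = 0.0155), the 2 that were called, where 1.61% of all genes were called lower. C1ra (-0.33) and Itgam (-0.84), a chain of complement receptor 3, passed below 2-fold. C1ra did not pass with size factors (adjusted p = 0.0844 from limma) or quantile normalisation (adjusted p = 0.0793). Against NC, 16 were tested in COM+Met, and 4 passed as higher and 9 as lower, where 19.3% and 55.9% of all genes did. Of these, 3 were called higher and 5 lower, where 5.66% and 13.6% of all genes were. Clu (1.498), C1ra (1.10) and C2 (1.04), the classical pathway counterpart of Cfb, were called higher, and Cd93 (-2.53), Colec12 (-1.98), Cfp (-1.79), Fcna (-1.28) and Lrp1 (-1.24) lower. Lrp1, an endocytic receptor, stood at -0.94 with size factors, and Fcna at -0.87 with quantile normalisation.

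Genes with patterns most like those of the members were listed by Pearson's r of log2(FPKM + 1) over the 18 samples, among 10744 other genes. For the mean of the C1q genes they were Lyz2 (0.912), Cpq (0.912) and Naa20 (0.880). For Cfb they were Cd1d1 (0.991), Sod2 (0.99) and Il12b (0.987), and for C3 they were Rnf19b (0.978), Thbs1 (0.975) and Nod2 (0.967). C3ar1 was most like 9930111J21Rik1 (0.917), Cd180 (0.910) and Serpina3f (0.899), and the genes most like C5ar1 included C1s1 (0.932) and Mmp9 (0.917). Serping1 was followed, after Dcn, by Enpp2 (0.910) and Top1 (0.889). For C4b the nearest was a new gene model, Mus_musculus_newGene_2709 (0.817), and then Wdfy1 (0.582) and Zfp90 (0.553). These r values rank genes in the same libraries and carry no test.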

How the data were processed

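The 18 BMDM samples formed the groups NC, COM and COM+Met (6 each), with groups and replicate numbers from the sample labels. FPKM values (fragments scaled to gene length and sample total) were deposited by the authors in a column for each sample. In the submitters' processing notes the aligner Bowtie (0.12.2) and 2 mouse builds, mm8 and mm9, are listed without roles. The quantifier, its annotation and any filter were not given in the sources used here. Sums per sample ran from 380731 to 449186 FPKM. Depth is unknown and whole reads could not be recovered, so no counting interval or floor is given.

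Values were transformed to log2(FPKM + 1), and genes averaging 1 FPKM or more across the 12 samples of a comparison were fitted with limma 3.58.1 (lmFit, then eBayes with trend) in R 4.3.3. Adjustment was by Benjamini-Hochberg over all genes tested. Single members were also compared by two-sided exact permutation tests over all splits of 12 samples into 6 and 6, unadjusted (9 members in 3 comparisons). The procedure was tested on simulated data, with independent values for each gene and sample. These lacked the splits within groups seen here, so that test does not cover them. Python 3.11.15, pandas 2.3.3, numpy 2.4.6, scipy 1.17.1 and matplotlib 3.10.9 were used. Positions came from GENCODE M21 on GRCm38 by Ensembl identifier. Promoters came from RefSeq on GRCm38.p6 and were searched on both strands for PU.1 (GAGGAA), C/EBP (TTGCNNAA), kappa B (GGG and TTTCC with any 2 bases between), GAS (TTCNNNGAA) and the ISRE core (GAAA repeated after any 2 bases).

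The members, the list of other complement genes, the marker lists and the alternatives were chosen with earlier results of these data known. Named genes are all members, of the other complement genes those called (at most 8 in each comparison), and the 3 genes most like each member (for C1q, the mean of the 3 subunit genes). Itgam was named after its value was seen, and 1 gene that the rule names is not reported here. Settings varied were the pseudocount (0.1 and 5), the filter (any mean above 0, or 5 FPKM), the scaling (TPM, quantile normalisation, median-of-ratios size factors), a replicate block, all 18 samples in the same fit, sample weights, each sample left out, and NC-5 and NC-6, COM-1 to COM-3 or COM-4 to COM-6 left out together.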

Additional observations from a re-analysis of the deposited data

Results flagged for a closer look

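Dixon's criterion flags about 1 in 20 independent groups by chance. Groups of member values share libraries, so their flags cannot be counted against that rate. In 6 of 27 groups of 6 member values, a sample lay apart from the others by this criterion. COM+Met-1 was that sample for 5 genes: C1qa (1.31 FPKM against 6.48 to 8.93 in the other 5), C1qb (5.08 against 22.0 to 29.2), C3ar1 (8.22 against 21.0 to 25.2), C5ar1 (15.3 against 20.5 to 21.3) and Serping1 (0.542 against 0.0 to 0.136). Over all genes COM+Met-1 correlated with the other COM+Met samples at 0.989 to 0.992. The sixth was Cfb in COM-6, with 765 FPKM against 1522 to 1580.5 in the other 5 COM samples.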

How the results depend on the processing

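Of 576 values of single members under the alternatives, 514 kept their direction and side of the threshold, 42 gained significance, 5 lost it, 12 changed sign and 3 without a test moved. The rise of Cfb and C3 in COM+Met over NC, of Cfb in COM over NC and of the C1q genes in COM+Met over COM passed under every alternative that tested them. For COM against NC, the log2 fold change of C3 lost significance with the replicate block (0.78, adjusted p = 0.0529 from limma) and with sample weights (0.19, adjusted p = 0.193). C3ar1 in COM+Met over NC lost it with all 18 samples in the same fit (0.74, adjusted p = 0.127 from limma).

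Values that changed sign for COM against NC were those of Serping1 with quantile normalisation (0.070) and of C3ar1 with sample weights (-0.41) and without COM-4 to COM-6 (-0.52). For COM+Met against COM they were those of C3 with sample weights (0.23) and without COM-4 to COM-6 (0.29), and of C3ar1 without COM-1 (-0.022), COM-2 (-0.027), COM-3 (-0.067) or all 3 (-0.91), within a range up to 0.47 when 1 sample was left out. In COM+Met against NC they were those of C5ar1 with size factors (0.20) and quantile normalisation (0.12) and of C1qa without NC-5 and NC-6 (-0.061). The cause of these changes was not tested.

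Members passing as lower for COM against NC numbered 1 with a pseudocount of 5, with all 18 samples in the same fit and without COM-4 to COM-6, 4 with sample weights, 3 without NC-5 and NC-6, and 0 to 3 with a sample left out, and 1 passed as higher without NC-5 and NC-6. Between COM+Met and COM, 5 passed as higher with sample weights and without COM-4 to COM-6. As lower, 2 passed in these fits and with TPM and size factors, 1 with quantile normalisation, with all 18 samples and without COM-1 to COM-3, and 0 to 2 with a sample left out. In COM+Met against NC, 3 to 5 passed as higher with a sample left out, and 1 as lower with no filter, with sample weights and without NC-5 and NC-6.

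Over all genes, the count called lower for COM against NC (1273) became 563 with a pseudocount of 5, 833 with the filter of 5 FPKM, 834 with size factors, 777 with sample weights, 818 without COM-4 to COM-6 and 2131 without COM-1 to COM-3, and 417 were called higher with a pseudocount of 5. The share of calls that were higher was 33.9% as deposited and 50.7% with size factors, and for COM+Met against NC 29.4% and 45.2%. Between COM+Met and COM (63 higher and 167 lower) the counts were 95 and 275 with a pseudocount of 0.1, 29 and 61 with a pseudocount of 5, 216 and 503 with sample weights and 236 and 535 without COM-4 to COM-6, while 104 were lower with the filter of 5 FPKM and 96 higher without COM-1 to COM-3. In COM+Met against NC (1467 lower) 679 were lower with a pseudocount of 5 and 913 with the filter of 5 FPKM.

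The replicate numbers did not pair the samples: the deviations of same-numbered samples correlated at -0.222 to 0.0569, and 0 of 6 samples in each comparison correlated best with its own number. As a block the number let C5ar1 pass for COM against NC (0.40, adjusted p = 0.0172 from limma), and C3 was the only other member whose passing changed. Since depth is unknown, the precision of values below about 1 FPKM (C4b, Serping1 and C1qa in COM) cannot be given.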
